A study of Drosophila melanogaster with 24 samples.

Results

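Ada2b and Non-stop stand for the 2 enzyme activities of the SAGA coactivator, and the peak lists of their chromatin immunoprecipitation (ChIP-seq) libraries were compared with each other in Drosophila melanogaster embryos. The comparison took all 4 Ada2b ChIP libraries (1530_1, 1530_2, 1530_3 and 1760_2) and both Non-stop ChIP libraries (1924_1 and 1924_2), chosen by antibody label alone. These are 6 of the 24 samples of the series and 6 of its 14 peak lists. All libraries came from embryos labelled as 1 to 3 h old and staged as 4 to 6, fixed whole, and the labels give neither a genotype nor the number of embryos. Whole embryos hold several cell types, so a peak can come from some of the nuclei only. The Ada2b antibody was a rabbit antibody raised against residues 1 to 330, and the Non-stop antibody a rabbit antibody raised against residues 178 to 496. The first part of a library number names its set. Ada2b came from sets 1530 and 1760 and Non-stop from set 1924, so the factor and the library set cannot be told apart in any difference given here. Nothing in the labels says that libraries of one set came from separate embryo collections, so p-values measure the spread between these libraries, which may be technical.

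SAGA is a large complex built from modules that activators bring to promoters. Its histone acetyltransferase module holds the enzyme Gcn5 with Ada2b, Ada3 and Sgf29, and places acetyl groups on histone tails. Ada2b is the adaptor that binds Gcn5 and stimulates its activity on nucleosomes. Its deubiquitinase module holds the ubiquitin protease Non-stop with Sgf11 and E(y)2, and removes ubiquitin from histone H2B. Non-stop is the catalytic subunit, and Sgf11 is needed for its activity. In the embryo both modules act on genes transcribed by RNA polymerase II (Pol II). The acetyltransferase module also occurs in a smaller complex without the other modules, and the deubiquitinase module can bind chromatin apart from SAGA. Lists of Pol II (2 libraries), Sgf11 (3 libraries) and Spt3 (3 libraries), a subunit of the SPT module of SAGA, were used to describe the peaks.

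Ada2b peaks were fewer than Non-stop peaks in every library. Ada2b gave 3262, 1878, 1563 and 5446 peaks in libraries 1530_1, 1530_2, 1530_3 and 1760_2, against 8558 and 12073 Non-stop peaks in libraries 1924_1 and 1924_2. The lists held 12149 Ada2b peaks and 20631 Non-stop peaks in all. Ada2b peaks covered 1.33, 0.844, 0.673 and 2.49 Mb, and Non-stop peaks covered 4.49 and 6.20 Mb. The largest Ada2b list, 1760_2, was closer in size to the smaller Non-stop list than to the smallest Ada2b list. On the log2 scale the mean difference (Ada2b minus Non-stop) was -1.92, so that Ada2b lists held 0.264 times as many peaks (exact permutation p = 0.133, two-sided). With 4 libraries against 2 there are 15 arrangements and the smallest p is 0.0667, and a sign-flip test over 4 libraries cannot go below 0.13. No test in this comparison could therefore pass 0.05, whatever its size. After Benjamini-Hochberg adjustment over 17 tests no p was under 0.162. No reads were in the lists. Depth is therefore unknown, and the length of a list can move with it. Where a comparison could be affected by list length it was repeated with the 1563 strongest peaks of each library, as many as the smallest list holds.

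Peak widths overlapped between the factors. Median widths were 342.5, 329, 318 and 383 bp in the Ada2b libraries and 362 and 374 bp in the Non-stop libraries (log2 difference of -0.10, exact permutation p = 0.333). Ada2b 1760_2 had the highest median width of all 6 libraries. Reduced to the 1563 strongest peaks, Ada2b peaks were further below Non-stop peaks in width, by -0.44 on the log2 scale (exact permutation p = 0.2). Fold enrichment, the ratio of ChIP to background that the peak caller gives at the summit, had medians of 2.77, 2.78, 2.80 and 2.76 in Ada2b libraries, against 3.09 and 3.14 in Non-stop libraries. The highest Ada2b peaks reached 12.0 to 12.9-fold, and the highest Non-stop peaks 17.6-fold and 15.9-fold. Fold enrichment and score depend on depth and antibody, so beyond these ranges they were used only as ranks within a list.

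Almost every Ada2b peak lay on a Non-stop peak. Of all 12149 Ada2b peaks, 85.9% overlapped a peak of both Non-stop libraries by at least 1 bp and 4.45% overlapped none. In 1530_1, 2879 peaks had both Non-stop libraries, 282 had 1 and 101 had none. In 1530_2 these numbers were 1685, 102 and 91, in 1530_3 they were 1432, 73 and 58, and in 1760_2 they were 4435, 720 and 291. The share with no Non-stop peak was 3.10, 4.85, 3.71 and 5.34% (4.25 ± 1.03%, SD, n = 4), with 95% Wilson intervals from 2.55 to 3.75% in 1530_1 and from 4.78 to 5.97% in 1760_2. Such intervals cover counting error only. Averaged over the 2 Non-stop libraries, 92.6, 92.4, 94.0 and 88.0% of Ada2b peaks were shared (91.8 ± 2.57%, SD, n = 4). The longest Ada2b list had the smallest shared part.

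The reverse share was far smaller. Of all 20631 Non-stop peaks, 52.6% overlapped no Ada2b peak in any of the 4 libraries and 11.3% overlapped a peak of all 4. In Non-stop 1924_1, 3958 peaks had no Ada2b library, 1729 had 1, 1256 had 2, 457 had 3 and 1158 had all 4. In Non-stop 1924_2 the numbers were 6889, 2093, 1427, 485 and 1179. A single Ada2b library covered a mean of 29.9% of the peaks of 1924_1 and 23.0% of those of 1924_2 (26.5 ± 4.88%, SD, n = 2). This share followed the length of the Ada2b list. For Non-stop 1924_1 it was 32.7% with Ada2b 1530_1, 19.1% with 1530_2, 16.2% with 1530_3 and 51.7% with 1760_2, and without 1760_2 the mean over both Non-stop libraries was 19.8%. Cut to the 1563 strongest peaks of every library, the lists are of equal length, so the 2 directions must nearly agree. Then 54.0 ± 3.97% of Ada2b peaks overlapped a Non-stop peak (SD, n = 4) and 53.0 ± 3.94% of Non-stop peaks overlapped an Ada2b peak (SD, n = 2), against 73.4 ± 1.68% between Ada2b libraries (SD, n = 4) and 79.2 and 78.4% in the 2 directions between the Non-stop libraries.

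**Figure D1:**
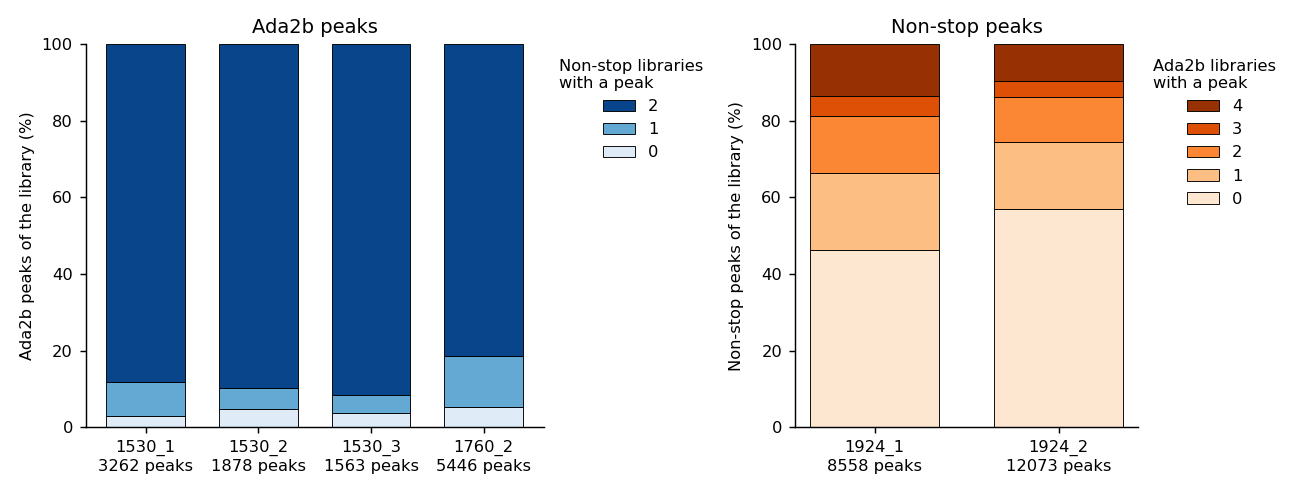
Percent of the peaks of each library (y axis) by the number of libraries of the other factor that have an overlapping peak, from 0 (palest) to all (darkest), for the 4 Ada2b libraries on the left and the 2 Non-stop libraries on the right, with the number of peaks of each list under its bar. The palest part holds 3.10 to 5.34% of the Ada2b peaks, against 46.2 and 57.1% of the Non-stop peaks.

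Libraries of different factors were less alike than libraries of one factor on average, but not pair by pair. The Jaccard index, the bases shared by 2 lists over the bases covered by either, averaged 0.205 ± 0.102 over the 8 pairs of an Ada2b with a Non-stop library (SD over pairs, which share libraries). It averaged 0.401 ± 0.155 over the 6 pairs of Ada2b libraries, and was 0.547 for the Non-stop pair. The difference between and within factors was -0.218 (exact permutation p = 0.0667, the smallest these libraries allow). With the 1563 strongest peaks it was -0.196 (exact permutation p = 0.0667). Library 1760_2 made the pairs overlap. Its index was 0.367 with Non-stop 1924_1 and 0.341 with Non-stop 1924_2, above its own 0.251 with Ada2b 1530_2 and 0.214 with Ada2b 1530_3. Its index with Ada2b 1530_1 was 0.469. The other 6 pairs between factors lay between 0.097 and 0.234. With equal numbers of peaks the pattern of 1760_2 was narrower, at 0.350 and 0.345 with the Non-stop libraries against 0.599, 0.347 and 0.314 with Ada2b 1530_1, 1530_2 and 1530_3. Counted in peaks rather than bases, at equal numbers 86.9, 67.3 and 62.1% of its peaks overlapped those 3 Ada2b libraries, more than the 56.9 and 57.3% that overlapped the Non-stop libraries. Its correlation of score percentiles was also higher with Ada2b libraries, at 0.863, 0.60 and 0.60, than with Non-stop libraries, at 0.499 and 0.511.

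By the median distance, summits of overlapping peaks lay slightly further apart on average between the factors than within them. The median distance between overlapping Ada2b and Non-stop summits was 28 to 36 bp in the 8 pairs of libraries, with a mean of 33.3 ± 2.96 bp (SD over pairs). Between Ada2b libraries the medians ran from 23 to 30 bp, with a mean of 25.2 ± 2.86 bp over 6 pairs, and the Non-stop pair gave 29 bp. The difference between and within factors was 7.54 bp (exact permutation p = 0.0667), and the ranges of the 2 kinds of pair overlapped. It fell to 5.04 bp with the 1563 strongest peaks of each library and kept its sign there (exact permutation p = 0.0667). Signed medians (Ada2b minus Non-stop position, in genome coordinates) were between -1 and 1 bp. Strand was not used, so an offset along genes would cancel, and these medians cannot show whether there was one. An Ada2b summit lay inside the Non-stop peak in 95.7 ± 1.17% of overlapping pairs, and a Non-stop summit inside the Ada2b peak in 88.7 ± 2.92% (SD over 8 pairs). In the overlapping pairs 62.0 ± 2.52% had summits within 50 bp and 15.5 ± 2.90% had summits over 200 bp apart. Between Ada2b libraries these shares were 69.0 ± 2.61 and 10.6 ± 2.21% (SD over 6 pairs). The Non-stop pair gave 63.1 and 18.6%, so its share over 200 bp apart was above the mean between the factors.

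The distance between summits followed the strength of the Ada2b peak. Among Ada2b peaks in the strongest 25% of their list, the median distance to the Non-stop summit was 16 to 24 bp, and 76.4 ± 2.90% of pairs were within 50 bp (SD over 8 pairs). Among Ada2b peaks of the weakest 25% it was 53 to 109 bp, and 37.7 ± 6.65% were within 50 bp. In pairs of Ada2b libraries the medians were 63.5 to 103 bp for weak peaks and 12 to 17 bp for strong peaks, with 87.6 ± 3.79% of strong pairs within 50 bp (SD over 6 pairs). The overlapping peaks were of unequal width. In pairs where each peak met a single partner, Ada2b peaks were a median of 0.640 to 0.970 times as wide as their Non-stop partner, and 11.9 to 45.3% of Ada2b peaks were the wider of the 2. The highest of both values came from 1760_2.

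**Figure D2:**
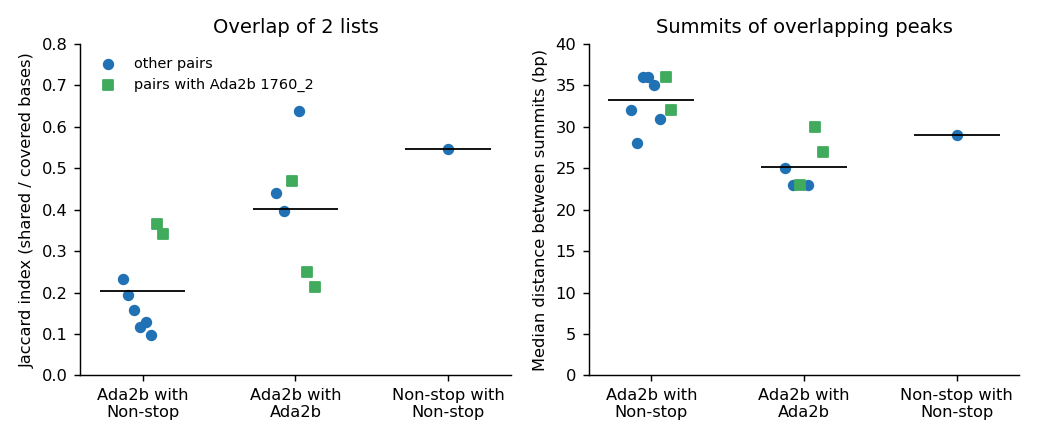
Jaccard index (left, shared over covered bases) and median distance between summits of overlapping peaks in bp (right) for every pair of the 6 libraries, by kind of pair, with the mean of each kind as a line and pairs that hold Ada2b 1760_2 as squares. Pairs between the factors lie between 0.097 and 0.367 and overlap the Ada2b pairs, which lie between 0.214 and 0.638. Summit distances are 28 to 36 bp between the factors and 23 to 30 bp within them.

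Shared peaks had higher scores than unshared peaks in every library of both factors. Score is the whole number the peak caller makes from its q-value, and it was turned into a percentile within each list. Ada2b peaks with both Non-stop libraries had median percentiles of 51.8 to 54.2, and those with none 24.5 to 37.8. The difference was 20.2, 28.2, 14.3 and 29.7 points in 1530_1, 1530_2, 1530_3 and 1760_2 (mean 23.1 ± 7.17, SD, n = 4, exact permutation p = 0.13 by sign flips, the smallest possible). It was positive in 4 of 4 libraries. Ranked by fold enrichment instead of score it was 34.9 points (exact permutation p = 0.13). Non-stop peaks with 3 or more Ada2b libraries lay 57.2 points above those with none in 1924_1 and 54.8 points in 1924_2. The mean gap of each factor was smaller at equal list length. At 1563 peaks per library the gap was 13.1, 26.4, 27.6 and 13.6 points in the Ada2b libraries (mean 20.2), against 38.6 and 30.7 points in the Non-stop libraries (mean 34.7). Whether the gap differs between the factors was not tested.

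Each list was also split in order of score into bins of 10%. In the weakest 10%, 94.1, 84.2, 91.7 and 85.4% of Ada2b peaks overlapped a Non-stop peak, against 9.51 and 5.28% of Non-stop peaks that overlapped an Ada2b peak. In the strongest 10% the shares were 100, 100, 99.4 and 99.8% for Ada2b and 99.1 and 97.4% for Non-stop. The strongest peaks of either factor thus nearly all lay on a peak of the other, and the Non-stop peaks without Ada2b filled the lower part of the Non-stop lists. Their median fold enrichment was 2.38 in 1924_1 and 2.44 in 1924_2. Non-stop peaks with all 4 Ada2b libraries had medians of 7.02 and 7.80. Ada2b peaks without Non-stop had medians of 2.23, 2.18, 2.09 and 2.30, and Ada2b peaks with both Non-stop libraries 2.82, 2.88, 2.91 and 2.89. Weak binding under the limit of the peak caller counts as absent in both directions.

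**Figure D3:**
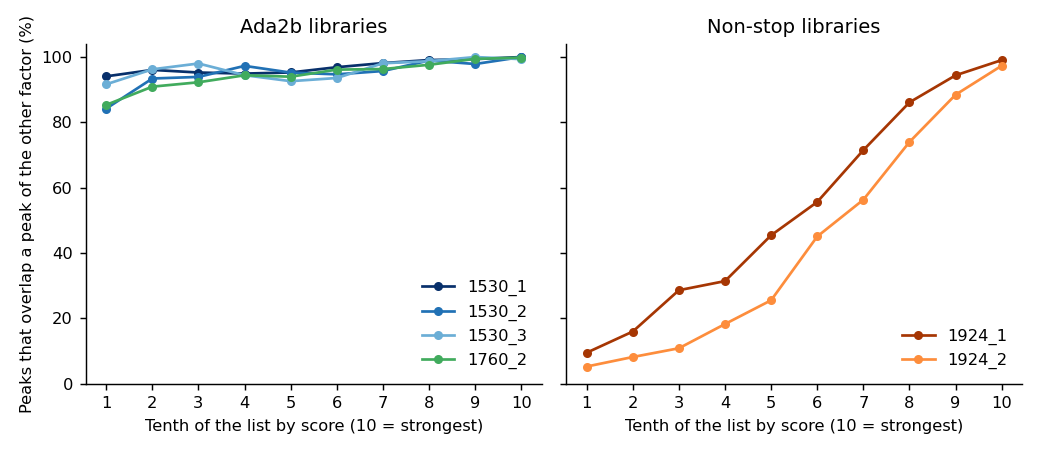
Percent of peaks that overlap a peak of any library of the other factor (y axis) by bin of 10% of the list in order of score (x axis, bin 10 the strongest), with a line for each Ada2b library on the left and each Non-stop library on the right. Ada2b lines stay between 84.2 and 100%, and Non-stop lines climb to 99.1 and 97.4%.

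At the sites where both factors peaked in all 6 libraries, their order of strength was only loosely alike. Overlapping peaks of reproducible lists (3 or more Ada2b libraries, both Non-stop libraries) were joined into 7078 sites, and 1121 of these had a peak in every one of the 6 libraries. Over these sites the mean percentiles of the 2 factors had a Spearman correlation of 0.384, given as a description, since sites are not independent and share libraries. Peak by peak, the correlation of percentiles was 0.325 to 0.511 between factors, 0.60 to 0.878 between Ada2b libraries and 0.752 between the Non-stop libraries. Of the 113 sites in the highest 10% for Ada2b and the 113 in the highest 10% for Non-stop, 27 were in both. Of the 86 sites in the highest 10% for Ada2b alone, 27 were in the lower 50% for Non-stop. Of the 86 in the highest 10% for Non-stop alone, 19 were in the lower 50% for Ada2b. For unrelated orders about 10% of either 113 would be in both, and at least 50% of either 86 in the lower 50%. The counts thus lay on the side of agreement between the orders.

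The strongest peaks of the 2 factors differed in Pol II. A peak was counted with Pol II when both Pol II libraries had an overlapping peak, which held for 67.8% of all Ada2b peaks and 68.5% of all Non-stop peaks. In the strongest 10% of each list, 48.0, 39.9, 41.4 and 53.4% of Ada2b peaks had Pol II, against 71.7 and 78.7% of Non-stop peaks. The libraries of the factors did not overlap, and the difference was -29.6 points (exact permutation p = 0.0667, adjusted p = 0.162). This test was added after the values were seen. With exactly 156 strongest peaks from each library, set against the whole Pol II lists, the shares were 43.6, 42.3, 41.7 and 43.6% for Ada2b and 71.8 and 83.3% for Non-stop. With a peak of Pol II 1188_2 alone counted, they were 62.1, 54.3, 56.7 and 66.1% for Ada2b and 79.8 and 88.4% for Non-stop.

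Pol II was less frequent at strong than at weak Ada2b peaks in all 4 libraries. In the weakest 10% 84.1, 93.5, 91.7 and 72.8% of Ada2b peaks had Pol II, against 75.4 and 61.7% of Non-stop peaks. From the weakest to the strongest 10% the share thus changed by -36.1, -53.6, -50.3 and -19.4 points in Ada2b libraries, and by -3.68 and 17.1 points in Non-stop libraries (difference of means -46.5, exact permutation p = 0.0667, also added after the values were seen). Taken within equal numbers of peaks of every list, Pol II included, this difference was -40.1 points (exact permutation p = 0.133). Among the 1121 sites with both factors in all 6 libraries, 743 (66.3%) had Pol II. Of the 86 in the highest 10% for Ada2b alone, 40 had it (46.5%), and of the 86 in the highest 10% for Non-stop alone, 75 had it (87.2%). The 27 in both had it at 13 sites. Every site in these 3 groups had a peak in all 3 Sgf11 libraries, against 85.9% of all 1121 sites. A peak in all 3 Spt3 libraries was at 84 of the 86 sites for Ada2b alone, 77 of the 86 for Non-stop alone and all 27 of both, against 59.1% of all 1121 sites. With every peak set to 200 bp at its summit, Ada2b minus Non-stop was -29.3 points in the strongest 10% (exact permutation p = 0.0667). The change from the weakest to the strongest 10% then differed by -52.6 points between the factors (exact permutation p = 0.0667). Within the Ada2b libraries that change was smaller than at called widths, at -19.7, -17.1, -22.5 and -6.92 points in 1530_1, 1530_2, 1530_3 and 1760_2. The median widths of the sites were 674 bp in the highest 10% for Ada2b alone and 741 bp in that for Non-stop alone.

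**Figure D4:**
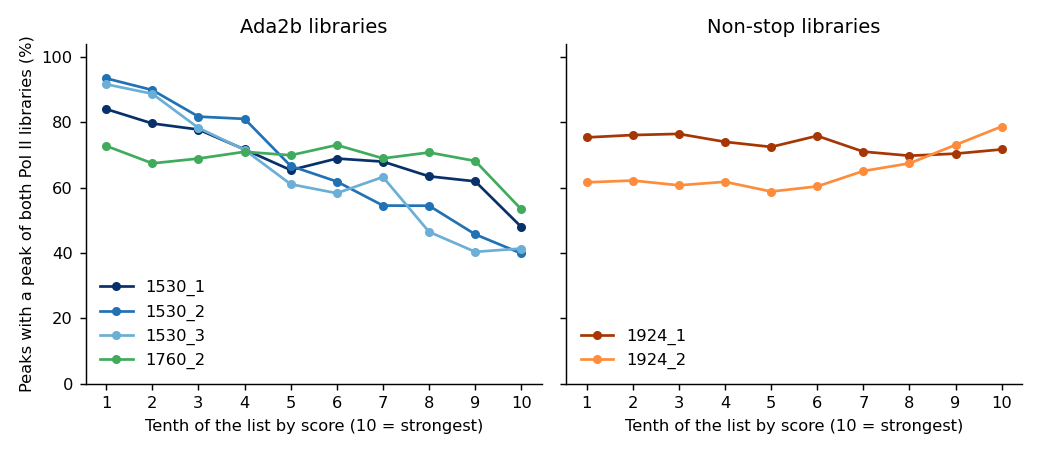
Percent of peaks with an overlapping peak in both Pol II libraries (y axis) by bin of 10% of the list in order of score (x axis, bin 10 the strongest), with a line for each Ada2b library on the left and each Non-stop library on the right. In the strongest 10% Ada2b lines end at 39.9 to 53.4% and Non-stop lines at 71.7 and 78.7%.

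Shared Ada2b peaks had Pol II more often than unshared ones in all 4 libraries, but on the main arms in 3 of 4. Pol II was at 72.7, 69.1, 66.7 and 74.8% of Ada2b peaks with both Non-stop libraries, and at 18.8, 41.8, 19.0 and 22.3% of those with none. Both minus none averaged 45.4 ± 12.3 points over the 4 libraries (SD), with an exact permutation p of 0.13 by sign flips. Unshared Ada2b peaks were often off the 6 main chromosome arms, on unplaced, heterochromatic or mitochondrial sequence, at 32.7, 40.7, 69.0 and 12.0%, against 2.74, 2.08, 2.23 and 2.57% of the shared peaks. On those sequences none of the 33, 37, 40 and 35 unshared peaks had Pol II in both libraries. Over all peaks on those sequences the shares were 32.2, 20.8, 21.8 and 27.4%. A peak in at least 1 Pol II library was at 57.4, 73.6, 70.7 and 37.5% of the unshared peaks on all sequences. For the shared peaks it was at 83.3, 77.9, 75.9 and 85.3%. On the main arms alone the difference was 45.5 points in 1530_1 and 50.4 in 1760_2, but -0.73 in 1530_2 and 5.89 in 1530_3 (mean 25.3, exact permutation p = 0.25). It was 10.8 points with the 1563 strongest peaks of every list (exact permutation p = 0.375), and 20.8 with either Pol II library counted (exact permutation p = 0.13).

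Among Non-stop peaks the difference in Pol II between shared and unshared peaks had no stable direction. Pol II was at 68.8 and 68.1% of Non-stop peaks with 3 or more Ada2b libraries, and at 73.3 and 60.6% of those with none, a difference of -4.53 points in 1924_1 and 7.59 in 1924_2. With every peak set to 200 bp at its summit the difference was 23.1 and 21.8 points, and in the upper 50% of each list by score it was -17.4 and -12.8 points. The SAGA subunits behaved otherwise. Peaks in 2 or more of the 3 Sgf11 libraries were at 89.9 and 89.7% of the first kind and at 20.7 and 20.0% of the second. Spt3 peaks in 2 or more of 3 libraries were at 72.1 and 70.0% of the first kind and at 2.73 and 2.35% of the second. Non-stop peaks without Ada2b thus seldom had either subunit at that stringency. With any library counted, Sgf11 was at 28.7 and 30.3% of them and Spt3 at 24.9 and 22.1%. Over all Non-stop peaks these shares were 62.6 and 56.0% for Sgf11 and 60.1 and 50.0% for Spt3. Their Pol II shares were at or below those of all Non-stop peaks, 73.3 and 65.0%. The first kind also had higher scores, at median percentiles of 85.5 and 86.1 against 28.3 and 31.3. Sgf11 rose with score in both lists, and the kinds were not matched for score.

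Unshared Ada2b peaks were few and uneven between libraries, and those on the main arms were weak. On the main arms they numbered 68, 54, 18 and 256 in 1530_1, 1530_2, 1530_3 and 1760_2, and 33 or more were elsewhere in each. Their median score percentiles were 32.9, 10.3, 9.53 and 24.2 on the main arms. Elsewhere they were 30.0, 50.2, 47.1 and 26.2, so that those of 1530_2 and 1530_3 lay near the middle of their lists. The unplaced sequence called Uextra held 22, 30 and 34 of the unshared peaks of set 1530 and 2 of those of 1760_2, which had 25 on the unplaced sequence U. Per the study's methods, a read with a few possible positions was placed at one of them, so positions in repeated sequence are uncertain. Of the main-arm unshared peaks, 56 of 68, 18 of 54, 10 of 18 and 55 of 256 also had a peak in another Ada2b library, and 3, 4, 3 and 4 had one in all 3 others. The shares, 82.4, 33.3, 55.6 and 21.5%, were below those over all main-arm peaks of the same libraries, 98.2, 94.6, 98.4 and 57.7%. Main-arm unshared peaks had Pol II at 19 of 68, 38 of 54, 11 of 18 and 65 of 256, or 27.9, 70.4, 61.1 and 25.4%. Over all main-arm peaks the shares were 70.3, 68.9, 66.4 and 69.7%, so that unshared peaks of 1530_2 and 1530_3 were near the level of their whole list and those of 1530_1 and 1760_2 below it.

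Most unshared peaks lay over 500 bp from any peak of the other factor. The median gap between an unshared Ada2b peak and the nearest Non-stop peak of either library on the same sequence was 3776, 3126, 38944 and 3412 bp, and 11.9, 27.5, 13.8 and 14.1% lay within 500 bp of one. These gaps cover all sequences, and in 1530_3 40 of the 58 unshared peaks lay off the main arms. Distances along unplaced sequence may not be distances in the genome, and gaps on the main arms alone were not computed. Non-stop peaks without Ada2b lay a median of 2552 bp (1924_1) and 3053 bp (1924_2) from the nearest Ada2b peak, with 13.2 and 12.0% within 500 bp. Unshared Non-stop peaks recurred less in the other Non-stop library than all peaks of their list did. Of those of 1924_1, 3098 of 3958 (78.3%) had a peak in 1924_2, and of those of 1924_2, 3057 of 6889 (44.4%) had one in 1924_1. Over all peaks of 1924_1 and 1924_2 these shares were 89.3 and 62.1%, and for the peaks with all 4 Ada2b libraries 99.9 and 96.8%. The lower share of 1924_2 was thus also present in its whole list.

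Chromosome arms differed by small amounts. On X lay 13.9, 12.7, 12.3 and 14.5% of Ada2b peaks, against 15.9 and 16.3% of Non-stop peaks, with no overlap (difference of -2.75 points, exact permutation p = 0.0667, adjusted over 7 arms p = 0.156). Ada2b peaks were the more frequent on 3R, at 24.7, 26.2, 25.5 and 24.1% against 22.7 and 23.1% of Non-stop peaks (difference of 2.23 points, exact permutation p = 0.0667, adjusted p = 0.156). On the small chromosome 4 lay 1.96, 1.65, 1.92 and 1.84% of Ada2b peaks and 2.22 and 2.47% of Non-stop peaks (difference of -0.50 points, exact permutation p = 0.0667), but the sign turned in the upper 50% of each list by score, where the difference was 0.40 points (exact permutation p = 0.267). The difference on X was -2.08 points with the 1563 strongest peaks (exact permutation p = 0.267). On 2R lay 20.4, 20.4, 21.8 and 19.9% of Ada2b peaks, just above the 19.5 and 19.9% of Non-stop peaks (difference of 0.97 points, exact permutation p = 0.2), and with the 1563 strongest peaks the difference was 0.19 points (exact permutation p = 0.933). Differences on 2L, 3L and all other sequences were -0.030, -0.60 and 0.68 points, with overlapping libraries (exact permutation p between 0.267 and 1). Those on 2L and 3L changed sign in other settings. Within the Non-stop lists, X peaks without Ada2b were the more frequent. X held 17.2 and 17.6% of Non-stop peaks with no Ada2b library, and 12.5 and 12.9% of those with all 4.

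**Figure D5:**
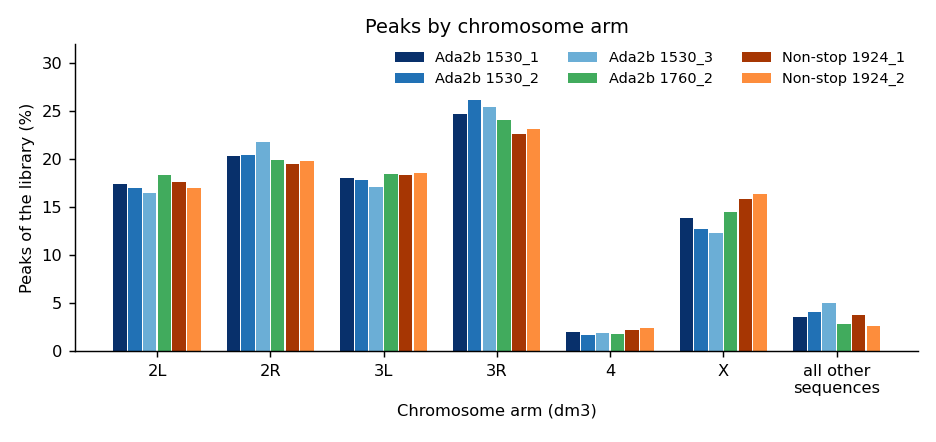
Percent of the peaks of each library (y axis) on each chromosome arm of dm3 and on all other sequences together (x axis), with a bar for each of the 4 Ada2b libraries (blue and green) and the 2 Non-stop libraries (orange). On X the Ada2b bars reach 12.3 to 14.5% and the Non-stop bars 15.9 and 16.3%.

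Non-stop was set beside Sgf11, its partner in the deubiquitinase module, as a cover of Ada2b peaks. With the 1563 strongest peaks of each library, Non-stop libraries overlapped a mean of 57.7, 51.1, 50.0 and 57.1% of the Ada2b peaks of 1530_1, 1530_2, 1530_3 and 1760_2, and Sgf11 libraries overlapped 55.7, 47.7, 45.1 and 57.1%. Non-stop minus Sgf11 was thus 1.97, 3.39, 4.97 and -0.021 points, a mean of 2.58 ± 2.12 (SD, n = 4), with an exact permutation p of 0.25 by sign flips. Without Non-stop 1924_1 the mean was -0.053. A difference between the 2 subunits was not shown, and the test could not have passed 0.05. For Spt3 the overlap was 51.1, 50.8, 50.4 and 51.7%, and Non-stop exceeded Spt3 by a mean of 2.95 ± 3.52 points over the 4 libraries (SD), with an exact permutation p of 0.375. That mean was 0.31 without Non-stop 1924_1, 5.58 without Non-stop 1924_2 and 30.1 with all peaks. The Non-stop libraries themselves overlapped Sgf11 at 65.5 and 71.5%, Spt3 at 55.7 and 56.8% and Ada2b at 55.8 and 50.2%. Non-stop 1924_2 shares its number with 1 Sgf11 library, and Ada2b 1530_1, 1530_2 and 1760_2 share theirs with the 3 Spt3 libraries.

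Of the 7078 joined sites, 1520 (21.5%) had reproducible peaks of both factors, 33 (0.466%) had reproducible Ada2b peaks and no Non-stop peak in either library, and 2699 (38.1%) had reproducible Non-stop peaks and no Ada2b peak in any library. Another 2758 had Non-stop with Ada2b in 1 or 2 libraries, and 68 had Ada2b with Non-stop in 1 library. Of the 33 sites, 24 lay off the main arms, 3 had all 4 Ada2b libraries, 4 had Pol II, 13 had Sgf11 and 23 had Spt3, each by the rule of both Pol II libraries or 2 of 3 libraries. Every one had a peak in some Spt3 or Sgf11 library. Of the 2699 sites, 2035 (75.4%) had Pol II, 743 (27.5%) had Sgf11 and 99 (3.67%) had Spt3, and 1541 had no peak in any Sgf11 or Spt3 library. Of the 1520 sites with both, 1059 (69.7%) had Pol II, 1383 (91.0%) had Sgf11 and 1104 (72.6%) had Spt3.

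Positions of the leading sites are given in dm3, counted from 1. No annotation of that build was used here, so no gene is named for them. The site with the highest mean percentile of both factors lay on X from 3028493 to 3029400. Its fold enrichment was 11.6, 12.6, 12.0 and 12.2 in the Ada2b libraries and 15.7 and 12.1 in the Non-stop libraries. The second lay on 2L from 18151052 to 18152891, with 10.3, 11.6, 11.4 and 10.8 for Ada2b and 14.6 and 11.2 for Non-stop. The third lay on 3R from 18182002 to 18182565, with 11.4, 11.7, 11.2 and 10.7 for Ada2b and 13.5 and 14.4 for Non-stop. These and the next 3 sites, on 2R from 8930594 to 8931204 and from 21070330 to 21070974 and on 3L from 6972394 to 6973493, had peaks in all 3 Spt3 and all 3 Sgf11 libraries. Both 2R sites had no peak in either Pol II library. Their fold enrichment averaged 9.70 ± 0.730 and 10.6 ± 0.471 for Ada2b (SD, n = 4) and 15.4 ± 0.980 and 14.9 ± 1.13 for Non-stop (SD, n = 2). The 3R site had a peak in 1 Pol II library, and the other 3 had a peak in both.

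The leading Ada2b site without a Non-stop peak lay on 3R from 18984966 to 18985463. Its fold enrichment was 5.07, 4.08, 4.11 and 6.36 in the 4 Ada2b libraries, at percentiles of 88.7, 78.1, 77.8 and 94.2. It had peaks in all 3 Sgf11 libraries and 1 Spt3 library and none in Pol II. The next sites of this kind were much weaker, at mean percentiles of 64.9, 61.8, 54.8, 54.7 and 47.0. They lay on X from 5422633 to 5422905, on 3L from 648187 to 648759, on X from 14497567 to 14498123, on 3R from 25570729 to 25571255 and on X from 8189478 to 8189935. All 6 had a peak in 2 or 3 libraries of Sgf11, the partner of Non-stop in the deubiquitinase module. By the rule of 2 or more libraries, Sgf11 was at 13 of all 33 sites of this kind (39.4%), 24 of them off the main arms. It was at 91.0% of the 1520 sites with both factors. The 6 were chosen by Ada2b score, and Sgf11 was not compared at matched score. The site at 14497567 was uneven, at percentiles of 76.2, 27.2, 30.3 and 85.3 in the Ada2b libraries.

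The leading Non-stop site without an Ada2b peak lay on 2R from 19091305 to 19091747, with fold enrichment of 9.80 and 9.42 in 1924_1 and 1924_2 and percentiles of 96.7 and 95.1. It had both Pol II libraries, 1 Sgf11 library and no Spt3 library. The second lay on 3R from 25282941 to 25283459, with 8.37 and 12.0, and the third on 2L from 10989135 to 10989580, with 8.16 and 11.3. The fourth lay on X from 16972649 to 16973252, with 8.77 and 10.6, and shared with the third a peak in all 3 Sgf11 libraries and in 1 Spt3 library. The fifth, on X from 10817747 to 10819840, was 2094 bp wide, with 8.13 and 7.17 and no Pol II peak. The sixth, on 3L from 3071736 to 3072098, had 8.99 and 8.38, both Pol II libraries and no Sgf11 or Spt3 peak. Mean percentiles of the 6 sites ran from 92.4 to 95.9. They were chosen from 2699 sites and the Ada2b sites above from 33, so no comparison of the percentiles was made.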

How the data were processed

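Peak lists of 6 ChIP libraries, 4 of Ada2b and 2 of Non-stop, were compared, with those of Pol II, Sgf11 and Spt3 as readouts. Groups came from the labels. Per the study's methods, reads were aligned to dm3 with bowtie and peaks called with MACS2 at default settings. The methods describe this for Ada2b, Spt3 and Sgf11. The submitters' processing notes name CASAVA 1.8.2, Bowtie and MACS2 for every sample, with no other version. The control for peak calling is not given in the sources used here.

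The deposited score is a whole number, 10 times the −log10 q-value cut to its whole part. The fold enrichment from the authors is the ratio of ChIP to local background. Both deposited −log10 columns (p and q) came from MACS2. The 6 lists began at −log10 q of 2.01 to 2.29. The lists hold no reads, so depth and its precision are unknown.

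Peaks that shared 1 bp or more were counted as shared. Score became a percentile within each list. Overlaps were computed with NumPy 2.4.6 and pandas 2.3.3 under Python 3.11.15, Wilson intervals with SciPy 1.17.1 and figures with matplotlib 3.10.9. They were tested on simulated lists, and in 60 comparisons with bedtools 2.31.1 on the deposited lists 0 differed. Tests were exact two-sided permutations of 6 libraries, or sign flips over 4. The members, lists and settings were chosen with earlier results of these data known. Alternatives were equal numbers of peaks, the upper 50% by score, main arms alone, overlap of 50% of the shorter peak, 200 bp at the summit, a common limit on fold enrichment, rank by fold enrichment, either Pol II library and leaving out each library. The tests of Pol II in the strongest 10% and the summit distance over peaks with a single partner were added after seeing the data. Named sites were the 6 of each kind with the highest mean score percentile on the main arms. Gene names and gene groups were left out because the annotation given was of another build. Total chromatin libraries were not analysed here.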

Additional observations from a re-analysis of the deposited data

Results flagged for a closer look

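By Dixon's criterion over the 4 Ada2b libraries, which chance passes in about 1 of 20 groups, 2 of 44 measures had a library that stood apart. Ada2b 1530_2 had Pol II at 41.8% of its peaks without Non-stop, against 18.8 to 22.3% in the other 3 libraries. On its main arms 70.4% of such peaks had Pol II, near the 68.9% of all its main-arm peaks. Ada2b 1530_1 had Sgf11 in 2 or more libraries at 74.8% of its peaks with 1 Non-stop library, against 57.5 to 58.8% in the others. Neither peak number, covered bases, width, fold enrichment nor the share of peaks with Non-stop stood apart in any Ada2b library.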

How the results depend on the processing

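No paired analysis was possible because Ada2b and Non-stop share no library number. Depth is unknown, and every share moves with the length of the lists. Tests could not pass 0.05 in any setting, so only directions can be compared. Of 130 recomputed values for the 12 main comparisons, 123 kept their direction and, where no test was made, stayed within 1 SD. With equal numbers of peaks the share of Ada2b peaks with Non-stop was 54.0% and that of Non-stop peaks with Ada2b 53.0%. With 200 bp at the summit the first was 79.7%. Leaving out each library in turn gave 88.8 to 94.7% for the first share and 19.8 to 30.6% for the second, and -0.053 to 5.21 points for Non-stop minus Sgf11 overlap, where the lone negative value came without Non-stop 1924_1. With all peaks in place of equal numbers that difference was 12.0 points. Among smaller comparisons, the arm difference on 3L was 1.22 points with equal numbers and that on 4 was 0.40 in the upper 50% by score. That on 2L ran from -0.37 to 0.30 without each library. The Pol II difference between shared and unshared Non-stop peaks was -5.44 points with either Pol II library, -0.53 with 50% overlap, -15.1 in the upper 50% and 22.5 with 200 bp at the summit, and -4.53 to 7.59 without each library. The causes were not tested. The summit distance was 5.83 bp with pairs of single partners, a setting chosen after seeing the data.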
